A study of Mus musculus with 4 samples.

Results

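Expression of 10 genes of renal magnesium handling and tubule junctions was followed across cell classes and time after FGF23, a hormone made in bone that acts on Klotho-bearing tubule cells and lowers their uptake of phosphate. They comprised the magnesium channels Trpm6 and Trpm7, the magnesium transport proteins Cnnm2 and Slc41a1, the calcium-sensing receptor Casr, the tight-junction claudins Cldn10, Cldn14, Cldn16 and Cldn19, and the secreted tubule protein uromodulin (Umod). The genes were taken by symbol, and all 10 were present among the 31053 genes of the count matrices. Dissociated kidney cells of C57BL/6J mice aged 10 weeks were profiled one by one in droplets (10x Genomics) at 0, 1, 4 and 12 h, with 1 library per time. The 1, 4 and 12 h mice had received 10 µg of recombinant human FGF23 in 1 intraperitoneal injection, and the 0 h library is labelled with a dose of 0. Kidneys of a male and a female mouse were digested together, and dead cells were removed with annexin V beads. The 0 h data were deposited under a name that mentions saline at 1 h, which the labels do not, so the reference of every ratio may be mice taken 1 h after saline rather than untreated mice.

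Magnesium is reclaimed along the tubule by different routes. In the thick ascending limb (TAL) it passes between cells through junctions that contain claudin-16 and claudin-19, while claudin-10, whose alternative first exons give isoforms of different charge selectivity, forms sodium-selective junctions there, and claudin-14 opposes claudin-16, under control of the calcium-sensing receptor. In the distal convoluted tubule (DCT) it enters cells through TRPM6 and TRPM7, channels fused to kinase domains, and CNNM2 and SLC41A1 are thought to serve its basolateral exit. Uromodulin is the most abundant protein of normal urine and is made chiefly by the TAL, with some in the early DCT.

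The upstream sequence of 3 genes is shown because Trpm6 and Umod were the members called lower (at least 1.5-fold below 0 h) in both distal classes at 12 h, and because Cldn10 has separate start sites. Each window holds the 250 bases before a RefSeq transcription start (GRCm38.p6), 5′ to 3′ on the gene's own strand. Capitals mark matches to the half-site GTTAAT (or its complement ATTAAC) of HNF1, a homeodomain factor of kidney tubules.
Trpm6, chr19:18749480-18749729, forward strand: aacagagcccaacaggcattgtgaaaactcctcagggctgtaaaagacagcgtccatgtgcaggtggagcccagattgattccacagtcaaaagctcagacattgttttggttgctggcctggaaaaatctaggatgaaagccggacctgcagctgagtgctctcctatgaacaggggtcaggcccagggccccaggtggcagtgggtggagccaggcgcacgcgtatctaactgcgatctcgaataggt
Umod, chr7:119479263-119479512, reverse strand: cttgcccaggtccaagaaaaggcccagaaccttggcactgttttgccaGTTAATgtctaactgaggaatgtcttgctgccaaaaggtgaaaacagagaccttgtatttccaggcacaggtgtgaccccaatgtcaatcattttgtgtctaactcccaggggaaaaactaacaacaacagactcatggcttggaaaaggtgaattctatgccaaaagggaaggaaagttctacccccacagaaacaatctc
Cldn10 upstream start, chr14:118787621-118787870, forward strand: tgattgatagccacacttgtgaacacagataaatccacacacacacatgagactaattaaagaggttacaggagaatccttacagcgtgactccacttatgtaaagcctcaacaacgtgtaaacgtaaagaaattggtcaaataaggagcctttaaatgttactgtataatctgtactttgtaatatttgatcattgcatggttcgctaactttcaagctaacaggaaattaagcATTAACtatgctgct
Cldn10 downstream start, chr14:118854700-118854949, forward strand: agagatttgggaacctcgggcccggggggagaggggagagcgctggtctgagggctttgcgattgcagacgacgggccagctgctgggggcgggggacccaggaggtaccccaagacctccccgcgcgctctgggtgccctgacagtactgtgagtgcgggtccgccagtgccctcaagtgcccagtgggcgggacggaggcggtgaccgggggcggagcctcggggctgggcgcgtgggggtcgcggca
The half-site lay in 6.43% of 32851 windows of this length and in 3 of the 14 windows of the members, which were those of Umod, Cldn10 and Cldn14. The EGR1 motif GCGNGGGCG, searched on both strands, lay in 4.70% of all windows and among the members only in that of Slc41a1. The AP-1 motif TGANTCA lay in 6.75% of all windows and in none of the members' windows. The AT-rich upstream Cldn10 window had 36% G and C, against 72.4% in the downstream one. In GENCODE vM21 (GRCm38) Cldn10 lies on the forward strand of chromosome 14, from 118787908 to 118875489. Its transcripts Cldn10-201 and Cldn10-202 start at 118787908 and 118787918, and Cldn10-203 starts within the gene at 118854732. Cldn10-201 and Cldn10-202 end at 118874524 and 118874525, and Cldn10-203 ends at 118875489. The matrices hold counts by gene, so the start sites could not be told apart here.

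In the same annotation Trpm6 spans 18749983 to 18892511 on the forward strand of chromosome 19. Trpm7 lies on the reverse strand of chromosome 2, from 126791565 to 126876230. Umod lies on the reverse strand of chromosome 7, from 119462711 to 119479282. Cldn16 spans 26463135 to 26482765 on the forward strand of chromosome 16, and Casr spans 36493696 to 36562141 on its reverse strand. Cnnm2 (chromosome 19), Slc41a1 (chromosome 1) and Cldn16 overlapped no other annotated gene. The other 7 each overlapped 1 other gene model, which lay on the same strand for Casr and Cldn14 and on the opposite strand for the rest. Whether the authors' counting split reads of overlapping genes is not given in the sources used here.

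After filters and removal of doublet calls, 8828 to 10239 cells remained per library, with a median of 8782 to 11189 UMIs (unique transcript molecules counted) per cell. Over all deposited barcodes, before filters, mitochondrial genes took 32.1% to 33.4% of UMIs at 0, 1 and 12 h and 26.0% at 4 h. Among kept cells the 4 h share was also the lowest in TAL-like cells (34.0%, against 36.1% to 37.4%). The same held in DCT-like cells (29.3%, against 33.0% to 34.2%). The 4 h library thus stood apart, and levels over UMIs outside mitochondrial genes were computed as an alternative. Between 36 and 57 cell barcodes were shared by each pair of libraries, and leaving them out changed no call of a member in TAL-like or DCT-like cells. There were 379, 366, 445 and 439 TAL-like cells at 0, 1, 4 and 12 h, and 372, 331, 428 and 365 DCT-like cells. Classes were named from other marker genes, and no member entered the clustering or the naming. A cluster of 311 cells led by Slc12a3 and Calb1 was left out of both distal classes because 95.2% of its cells were doublet calls. All 7 TAL markers were detected in TAL-like cells in every library, and all 5 DCT markers in DCT-like cells. Slc12a1, the TAL sodium-potassium-chloride cotransporter, lay at 6210 to 7251 CPM (a gene's UMIs over all UMIs of the class, in counts-per-million) in TAL-like cells and at 23.9 to 42.4 CPM in DCT-like cells. Slc12a3, the DCT sodium-chloride cotransporter, lay at 10569 to 12391 CPM in DCT-like cells and at 4.87 to 17.1 CPM in TAL-like cells at 0, 1 and 4 h. At 12 h it reached 77.2 CPM in TAL-like cells, where 267 of its 297 UMIs lay in 3 cells.

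With 1 library per time there was no test between times. All intervals are exact 95% intervals for counting error alone and leave out variation among mice or digestions. A gene was called higher or lower when its CPM differed from 0 h by at least 1.5-fold and the interval of the log2 ratio excluded 0, among genes with at least 20 UMIs over both libraries.

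**Figure D1:**
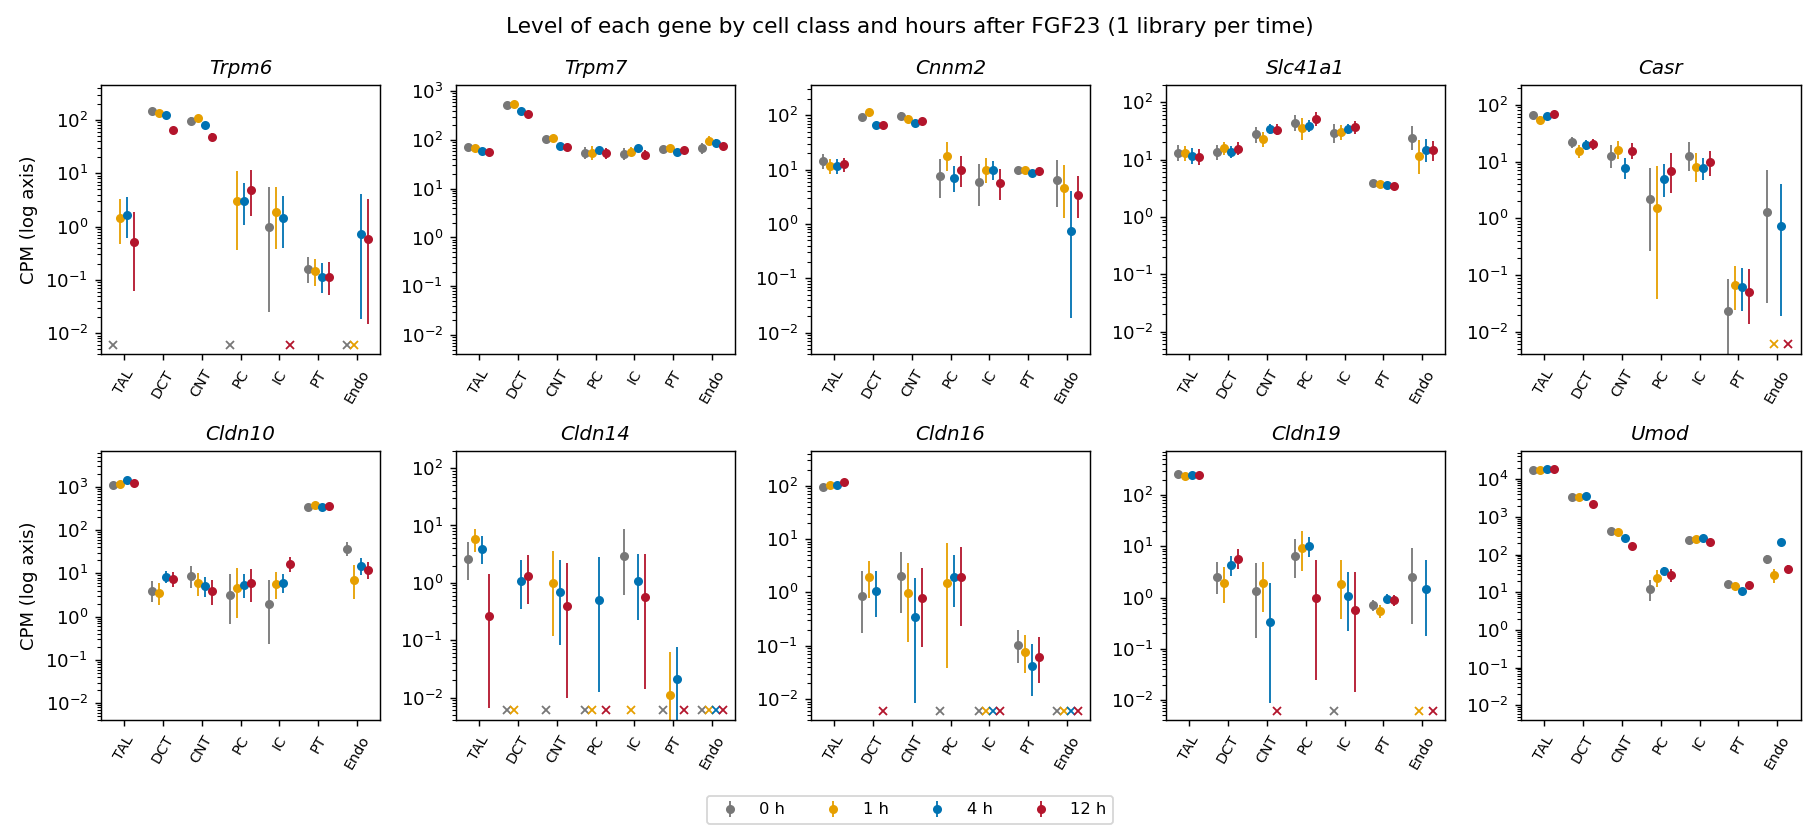
CPM (log axis) of the 10 genes in 7 cell classes, coloured by hours after FGF23, with exact 95% Poisson intervals. Crosses at the foot mark 0 UMIs, and bars that reach the foot are cut there. Trpm6 sits high in DCT and connecting tubule (CNT) cells, Cldn16 and Cldn19 in TAL cells, and Cldn10 in TAL and proximal tubule (PT) cells. PC, principal cells. IC, intercalated cells. Endo, endothelial cells.

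The channel genes of the distal tubule were lower at 12 h, and in the TAL Cldn10, Cldn16, Cldn19, Casr and Umod lay within 1.5-fold of 0 h at each time. In DCT-like cells 4 of 8 members tested at 12 h were called, 3 lower and 1 higher, where 13.4% of all genes tested were called (6.33% lower and 7.05% higher). The 3 lower members were Trpm6, Trpm7 and Umod. At 4 h 1 of 8 was called (Cldn10, higher), against 18.3% of all genes (8.3% higher and 9.98% lower), and at 1 h 0 of 7, against 7.03% (3.11% higher and 3.92% lower). In TAL-like cells 0 of 9, 0 of 9 and 0 of 8 members were called at 1, 4 and 12 h, where 2.78%, 5.47% and 4.17% of all genes were called. Of those TAL calls, the higher genes made up 1.74%, 2.57% and 2% of the genes tested, and the lower genes 1.04%, 2.9% and 2.18%. The median log2 ratio of the tested members in DCT-like cells at 12 h was -0.33, beside 0.01 over all genes there. Scaling to UMIs outside mitochondrial genes moved the 4 h calls over all genes from 836 higher and 1005 lower to 656 and 1326 in DCT-like cells, and from 259 and 293 to 186 and 415 in TAL-like cells. Centring on the median gene moved the 1 h calls in DCT-like cells from 308 higher and 388 lower to 368 and 300.

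**Figure D2:**
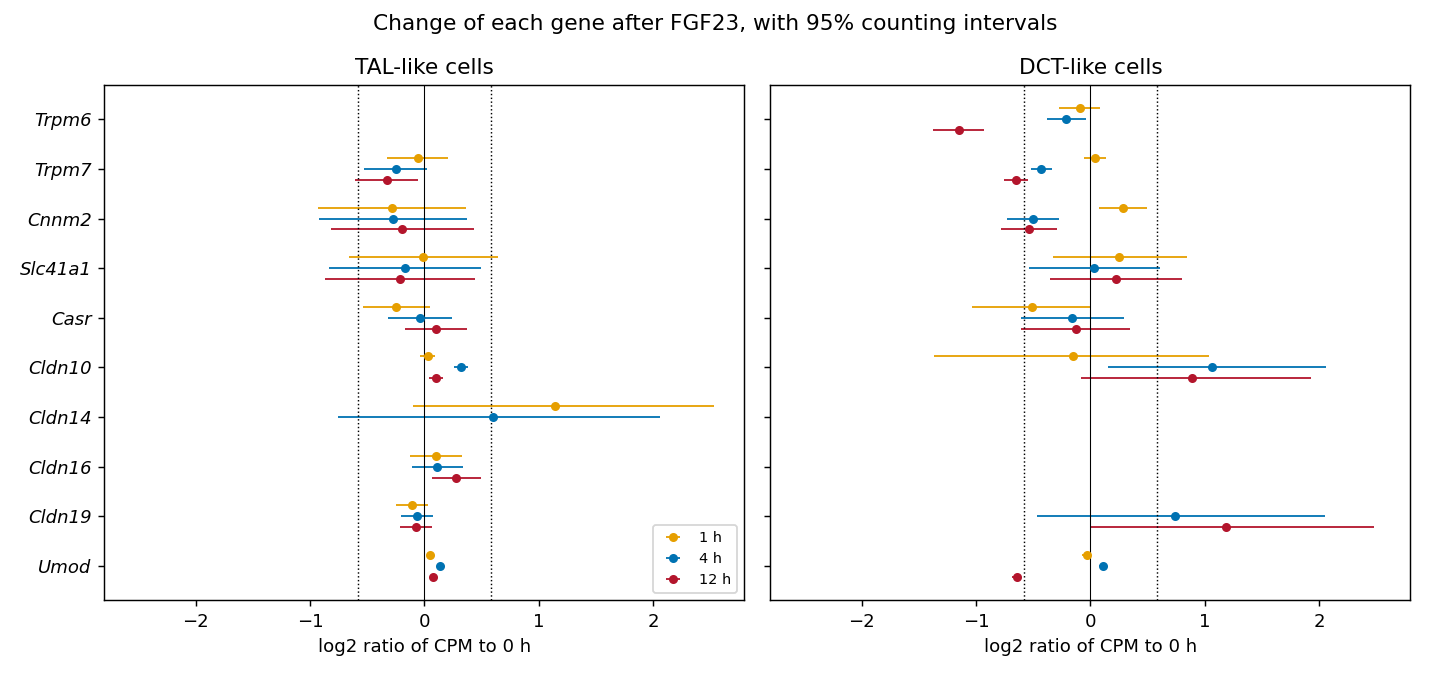
Log2 ratio of CPM to 0 h of the members tested in TAL-like (left) and DCT-like (right) cells, with exact 95% counting intervals. Dotted lines mark 1.5-fold. Trpm6, Trpm7 and Umod lie below the lower line at 12 h in DCT-like cells, and no TAL point lies past a line with an interval that excludes 0.

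Trpm6, the apical magnesium channel, was a distal gene. In DCT-like cells it gave 517, 501, 596 and 251 UMIs at 0, 1, 4 and 12 h, or 147 (95% interval 134 to 160), 137 (126 to 150), 127 (117 to 137) and 66.1 (58.2 to 74.8) CPM. The intervals of the first 3 libraries overlapped from each time to the next, and the 12 h library lay below all of them. The 12 h level was 2.22-fold lower than at 0 h (log2 ratio -1.15, -1.37 to -0.93). The share of DCT-like cells with a Trpm6 UMI, after thinning every cell to 2000 UMIs, was 23.5%, 22.4%, 21.2% and 10.7%. In PT-like cells, thinned the same way, that share was at most 0.0491%.

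The lower Trpm6 level at 12 h was present in the neighbouring segment as well. CNT-like cells, the connecting tubule that follows the DCT, had 96.8, 109, 82.0 and 48.0 CPM, and the 12 h level was 2.02-fold lower than at 0 h (log2 ratio -1.01, -1.37 to -0.65). Both CNT clusters shared the direction. In the cluster led by Calb1 the log2 ratio was -0.94 (-1.34 to -0.54), from 113 UMIs at 0 h and 101 at 12 h. In the cluster led by S100g it was -1.31 (-2.16 to -0.48), from 32 and 22 UMIs. Of 7 members tested in CNT-like cells at 12 h, 2 were called lower (Trpm6 and Umod) and 0 higher, where 8.08% of all genes were called (5.3% lower and 2.78% higher). At 1 h 0 of 7 members were called there, against 4.11% of all genes (2.37% higher and 1.74% lower).

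Cells were called female or male from Xist and 4 Y-linked genes, since each library mixed both sexes. The female share of sex-called DCT-like cells was 69.2%, 61.2%, 50.2% and 48.4% at 0, 1, 4 and 12 h, so Trpm6 was also read within each sex. Female-called DCT-like cells had 144, 142, 155 and 62.7 CPM, and male-called cells had 180, 148, 118 and 69.1 CPM. Female-called cells at 12 h gave a log2 ratio of -1.20 (-1.55 to -0.86). Male-called cells gave -1.38 (-1.75 to -1.02), so the level was lower in each sex. At 4 h the 2 sexes parted, at 0.11 (-0.13 to 0.35) and -0.61 (-0.91 to -0.31), a difference that was not tested. Sex and the individual animal cannot be told apart here. Over 11 alternatives the 12 h log2 ratio ran from -1.49 to -1.14 and was called lower in each.

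**Figure D3:**
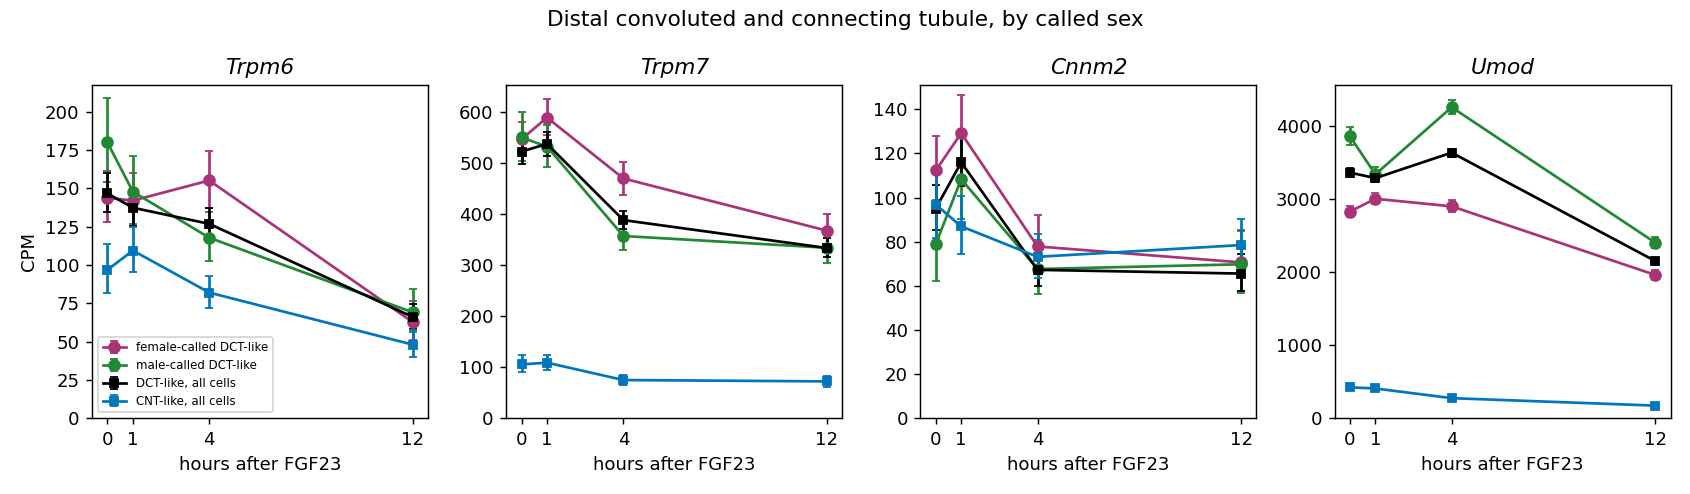
CPM of Trpm6, Trpm7, Cnnm2 and Umod against hours after FGF23 in all DCT-like cells (black), female-called (magenta) and male-called (green) DCT-like cells, and all CNT-like cells (blue), with exact 95% Poisson intervals. All 4 lines of the Trpm6 panel are lowest at 12 h, where the DCT-like cells sit at 66.1 CPM against 147 at 0 h.

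Outside the DCT and CNT, Trpm6 was near 0. TAL-like cells gave 0, 5, 6 and 2 UMIs, and the 0 UMIs at 0 h allow up to 0.972 CPM (3 counts). PT-like cells had 0.113 to 0.164 CPM. Principal cells of the collecting duct gave 0, 2, 6 and 5 UMIs and intercalated cells 1, 3, 4 and 0. In order of level the DCT (66.1 to 147 CPM over the 4 libraries) stood above the CNT (48.0 to 109), and these ranges overlap. The 2 CNT clusters differed, with 139, 182, 120 and 72.2 CPM in the one led by Calb1 and 46.9, 37.0, 34.4 and 18.9 in the one led by S100g. At 1 h the Calb1-led cluster (157 to 210) lay above the DCT, and in the other libraries their intervals overlapped.

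Trpm7, the broadly expressed relative of Trpm6, was found in every class and was highest in DCT-like cells. There it gave 523 (499 to 547), 538 (514 to 562), 388 (371 to 407) and 334 (316 to 353) CPM at 0, 1, 4 and 12 h. The 4 and 12 h libraries lay below the 0 and 1 h libraries with no overlap of intervals. The 4 h level was 1.35-fold lower (log2 ratio -0.43, -0.52 to -0.33), short of the 1.5-fold limit, and the 12 h level was 1.57-fold lower (-0.65, -0.75 to -0.54). The 12 h call held in 9 of 11 alternatives. The exceptions were a mitochondrial limit of 25% (log2 ratio -0.46) and female-called cells alone (-0.57), while male-called cells gave -0.72.

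Other classes had much less Trpm7. CNT-like cells had 105, 109, 74.9 and 72.2 CPM, and in the cluster led by S100g the 4 h log2 ratio was -0.68 (-1.24 to -0.11) and the 12 h ratio -0.80 (-1.39 to -0.20). By range, endothelial cells had 67.6 to 97.3, TAL-like cells 57.5 to 72.2, PT-like cells 56.7 to 66.9, intercalated cells 49.3 to 69.3 and principal cells 53.1 to 61.2. Below the DCT these ranges overlap between neighbours in that order. In TAL-like cells the log2 ratio was -0.06, -0.25 and -0.33 at 1, 4 and 12 h, and none was called. Macrophage-like cells had 27.1 to 47.7 CPM, and neutrophils 16.8 to 56.5 from 5 to 15 UMIs.

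Cnnm2, a membrane protein mutated in inherited magnesium wasting, shared the DCT and CNT with Trpm6. DCT-like cells had 95 (85.1 to 106), 116 (105 to 128), 67.3 (60 to 75.1) and 65.6 (57.7 to 74.2) CPM. The 1 h library was the highest, and the 4 and 12 h libraries lay below both earlier ones. The 1 h log2 ratio was 0.29 (0.08 to 0.50), the 4 h ratio -0.50 (-0.73 to -0.27) and the 12 h ratio -0.54 (-0.78 to -0.29), each short of the 1.5-fold limit. In 2 alternatives the 4 h value passed it, CPM over UMIs outside mitochondrial genes (-0.60) and a mitochondrial limit of 25% (-0.89). Female-called cells alone passed it at 12 h (-0.67, 112 to 70.6 CPM), while male-called cells gave -0.18. CNT-like cells had 96.8, 87.0, 73.2 and 78.5 CPM, which overlaps the range of the DCT. Its CNT cells were unequal, with 145, 130, 103 and 114 CPM in the cluster led by Calb1 and 39.6, 43.9, 35.9 and 35.3 in that led by S100g. TAL-like cells had 11.7 to 14.3 CPM and PT-like cells 8.64 to 9.98, with no call in the TAL at any time.

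Slc41a1, a sodium-magnesium exchanger, had its highest levels past the DCT. Among tubule and endothelial classes it was lowest in PT-like cells (3.49 to 3.90 CPM) and highest in principal cells (34.9 to 51.1), with intercalated cells at 28.5 to 36.3, CNT-like cells at 22.5 to 34.0, endothelial cells at 11.7 to 24.2, DCT-like cells at 13.3 to 15.9 and TAL-like cells at 11.2 to 13. Intercalated and CNT-like cells overlap in range with each other and with principal cells in part, and the counting intervals of DCT-like and TAL-like cells overlap in each library. In DCT-like cells it gave 47, 58, 64 and 59 UMIs, and its log2 ratio stayed between 0.03 and 0.25 with every interval spanning 0. In TAL-like cells it gave 40, 45, 41 and 43 UMIs, also with every interval spanning 0.

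Casr, the calcium-sensing receptor, was a TAL gene. TAL-like cells had 65.1 (56.4 to 74.8), 55.0 (47.5 to 63.3), 63.5 (55.5 to 72.3) and 69.7 (61.6 to 78.5) CPM at 0, 1, 4 and 12 h. Each of the 3 treated libraries overlapped the 0 h interval, and the log2 ratios were -0.24, -0.04 and 0.10. DCT-like cells had 15.4 to 21.9 CPM, CNT-like cells 7.83 to 16.1 and intercalated cells 7.62 to 12.8, and the last 2 ranges overlap. PT-like cells had 2 to 6 UMIs per library, or at most 0.0667 CPM. No call was made in the DCT, where the 1 h log2 ratio was -0.51 (-1.03 to 0.01).

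TAL-like cells fell into 2 clusters. The first was led by Egf and Sostdc1, apart from members, and held 60.7%, 61.7%, 62.7% and 64.5% of TAL-like cells at 0, 1, 4 and 12 h. The other was led by Slc12a1, Nccrp1 and Ptger3, a prostaglandin receptor. No member was used to form them, but members can follow genes that were, as Umod followed Egf over classes, so the members' levels in each are a description. The clusters differed in Cldn16 and, the other way, in Cldn10, and little in Cldn19.

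Cldn16, the paracellular magnesium claudin mutated in familial hypomagnesaemia, was nearly confined to the first cluster among TAL-like cells. That cluster had 142 (126 to 160), 160 (144 to 178), 158 (142 to 175) and 180 (163 to 198) CPM, and the Nccrp1-led cluster had 14.5, 4.72, 6.38 and 13.7 CPM from 16, 6, 8 and 20 UMIs. Cldn10 was present in both and higher in the Nccrp1-led one. It had 658, 655, 704 and 669 CPM in the Egf-led cluster and 1988, 2033, 2725 and 2111 CPM in the Nccrp1-led cluster. Casr followed Cldn16 in direction, with 81.2, 63.9, 85.4 and 89.6 CPM against 36.2, 39.3, 23.1 and 37.0. In all 4 libraries the interval of each of these 3 genes in 1 cluster lay apart from that in the other.

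Over all TAL-like cells Cldn16 gave 298, 362, 372 and 450 UMIs, or 96.5 (85.9 to 108), 104 (93.3 to 115), 104 (94.1 to 116) and 117 (106 to 128) CPM. The 12 h log2 ratio was 0.28 (0.06 to 0.49), 1.21-fold, and no time was called. Within the Nccrp1-led cluster the 1 h value, from 16 and 6 UMIs, was called lower (log2 ratio -1.62, -3.26 to -0.19), where 2.37% of all genes were called lower in that cluster. Other tubule and vascular classes were near 0, with DCT-like cells at 0 to 1.92 CPM, PT-like cells at 0.0415 to 0.105 CPM and endothelial cells at 0 UMIs in each library.

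Cldn19, the partner of claudin-16 in the TAL junction, was not split between the clusters. The Egf-led cluster had 235, 231, 230 and 246 CPM and the Nccrp1-led cluster 293, 249, 269 and 239 CPM, and only at 0 h did the intervals (214 to 257 and 262 to 326) lie apart. Over all TAL-like cells it lay at 256 (238 to 274), 237 (222 to 254), 244 (228 to 261) and 243 (228 to 259) CPM, and its log2 ratios of -0.11, -0.07 and -0.07 had intervals that span 0. DCT-like cells gave 9, 7, 20 and 22 UMIs (1.92 to 5.79 CPM). Its 12 h value there was called higher (log2 ratio 1.18, 0.01 to 2.48), a call that 4 of 11 alternatives kept. B cells had 1.13 CPM at 12 h. Macrophage, neutrophil and T or NK cells had 0 UMIs at 12 h, which allow up to 5.81, 29.6 and 2.33 CPM (3 counts). Over all libraries these 4 immune classes had 0 to 5.39 CPM, the highest from 3 UMIs in 1 B cell at 1 h. Mesenchymal cells, of which there were 31 to 68 per library, had 15.1, 44.3, 50.5 and 41.2 CPM from 7, 14, 34 and 10 UMIs, of which 3, 10, 10 and 6 lay in 1 cell.

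Cell by cell, Cldn10 and Cldn16 were seldom counted together. Among 1546 TAL-like cells thinned to 2000 UMIs, 31.0% of cells with a Cldn16 UMI also had a Cldn10 UMI (Clopper-Pearson 95% interval 25.7% to 36.7%), against 75.2% (72.7% to 77.6%) of cells without one. The shares were 43.3%, 27.0%, 30.4% and 25.6% with Cldn16 at 0, 1, 4 and 12 h, and 73.9%, 75.1%, 75.2% and 76.5% without. In each library the 2 intervals lay apart. The same held inside the Egf-led cluster alone, at 29.1% (23.8% to 34.8%) with Cldn16 and 55.8% (52.0% to 59.6%) without. Splitting by Cldn19 gave 68.2% (64.4% to 71.8%) with it and 66.3% (63.2% to 69.4%) without, which are intervals that overlap. Cldn19 itself was counted in 38% (32.4% to 44.0%) of cells with Cldn16 and 41.2% (38.5% to 44.0%) of cells without. Thinning makes each cell a sample of its RNA, so a cell without a UMI may still express the gene.

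**Figure D4:**
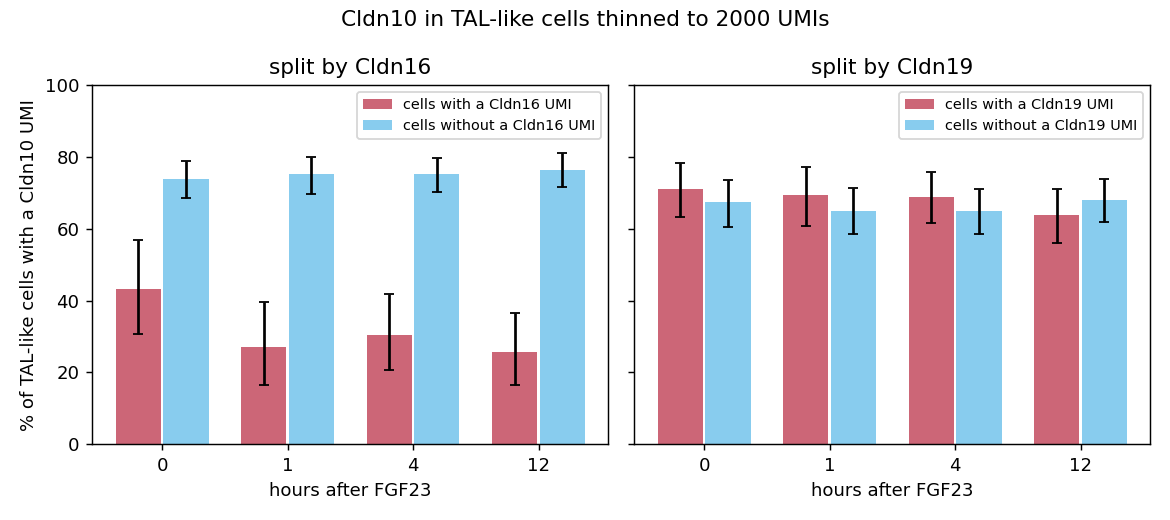
Share of TAL-like cells, thinned to 2000 UMIs, with a Cldn10 UMI, at each time after FGF23, for cells with (red) and without (blue) a UMI of Cldn16 (left) or Cldn19 (right). Error bars are Clopper-Pearson 95% intervals. The left bars part in each library (25.6% to 43.3% against 73.9% to 76.5%) and the right bars overlap.

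Cldn10 was also a proximal tubule gene. Over all TAL-like cells it lay at 1134 (1096 to 1172), 1156 (1121 to 1193), 1416 (1377 to 1456) and 1216 (1181 to 1251) CPM. The 4 h library was the highest, at 1.25-fold of 0 h (log2 ratio 0.32, 0.26 to 0.38), below the 1.5-fold limit. That step lay in the Nccrp1-led cluster, where the 4 h log2 ratio was 0.46 (0.38 to 0.53), against 0.10 (-0.01 to 0.20) in the Egf-led one. Over 10 alternatives the 4 h log2 ratio of all TAL-like cells ran from -0.004 (mitochondrial limit 25%) to 0.58 (female-called cells). PT-like cells had 346, 377, 351 and 363 CPM, and 48.6% to 51.9% of them had a UMI after thinning. In DCT-like cells 14, 13, 39 and 28 UMIs were counted, and 18 of the 39 at 4 h lay in 1 cell. The call of higher Cldn10 at 4 h (log2 ratio 1.06, 0.15 to 2.06) turned to -0.47 in female-called cells and to 0.20 when cells were weighted equally. Its level in DCT-like cells (3.56 to 8.30 CPM) was no higher than the 4.22 to 28.7 CPM of macrophage, neutrophil, B and T or NK cells, which are not known to make claudin-10, so it is not read as expression there.

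Outside these segments Cldn10 rested on few UMIs. Intercalated cells had 2 UMIs at 0 h and 29 at 12 h, of which 16 lay in 1 cell, and the 12 h value was called higher (log2 ratio 3.06, 1.08 to 6.18), where 2.95% of all genes were. Endothelial cells gave 29, 6, 20 and 21 UMIs, and 12 of the 29 at 0 h lay in 1 cell. The 3 later libraries were called lower against it, with log2 ratios of -2.40, -1.33 and -1.60, where 1.62%, 3.86% and 2.93% of all genes were called lower at 1, 4 and 12 h. The intercalated value at 12 h and the later endothelial values lay within the range of the immune classes as well, and are not read as changes in expression.

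Cldn14, the claudin that opposes claudin-16, was scarce. TAL-like cells gave 8, 20, 14 and 1 UMIs at 0, 1, 4 and 12 h (2.59, 5.73, 3.93 and 0.260 CPM), in 3, 9, 8 and 1 cells. Of the 8 UMIs at 0 h, 5 lay in 1 cell, and of the 20 at 1 h, 10 did. The 1 h log2 ratio was 1.14 (-0.10 to 2.54) and was not called. With cells weighted equally it was 1.45 and was called higher. At 12 h too few UMIs were counted for a call. All but 1 of the TAL UMIs lay in the Egf-led cluster, the one that held Cldn16. DCT-like cells gave 0, 0, 5 and 5 UMIs, CNT-like cells 0, 2, 2 and 1, and intercalated cells 3, 0, 3 and 1. The 3 UMIs of intercalated cells at 0 h made 2.95 CPM, beside 2.59 in TAL-like cells. Endothelial, macrophage, B and T or NK cells gave 0 in each library.

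Umod marked the TAL and, at a lower level, the DCT. TAL-like cells had 17458 (17311 to 17606), 18009 (17869 to 18151), 19182 (19038 to 19326) and 18338 (18203 to 18474) CPM, and 98.3% to 99.4% of them had a UMI after thinning. The 4 h library was the highest, at 1.10-fold of 0 h (log2 ratio 0.14, 0.12 to 0.15). Over UMIs outside mitochondrial genes the levels were 27636, 28772, 29077 and 28692 CPM. The 4 h log2 ratio was -0.17 in female-called and 0.44 in male-called TAL-like cells. The Egf-led cluster had 20932 to 22510 CPM and the Nccrp1-led cluster 11215 to 13301 CPM, so their ranges lay apart. In DCT-like cells Umod lay at 3364 (3304 to 3425), 3288 (3229 to 3347), 3637 (3583 to 3692) and 2153 (2107 to 2200) CPM, and 80.9% to 88.5% of cells had a UMI after thinning. In PT-like cells that share was 2.32% to 3.05%.

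The 12 h DCT level of Umod was 1.56-fold lower than at 0 h (log2 ratio -0.64, -0.68 to -0.60). It was lower in both sexes, at -0.53 in female-called and -0.68 in male-called cells. The call held in 8 of 11 alternatives, and the other 3 gave log2 ratios of -0.53 (female-called cells), -0.54 (cells weighted equally) and -0.28, the last with a mitochondrial limit of 25%. No single DCT-like cell held more than 273 of the 8177 to 17090 UMIs of a library. The TAL markers Slc12a1, Egf, Ptger3, Sostdc1, Tmem207, Ppp1r1b and Kcnj1 summed to 3575, 3015, 2182 and 1904 CPM in DCT-like cells at 0, 1, 4 and 12 h, of which Egf made up 2371, 1831, 1207 and 812, and their part in the Umod result was not tested. Slc12a1 alone lay at 29.8, 23.9, 42.4 and 28.2 CPM there.

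CNT-like cells had less Umod at later times, with 423, 407, 275 and 173 CPM. The 4 h log2 ratio was -0.62 (-0.77 to -0.47) and the 12 h ratio -1.29 (-1.47 to -1.11). At 4 h Umod was the 1 member called of 7, lower, where 10.3% of all genes were called (6.68% lower and 3.64% higher). The clusters differed, since the log2 ratio in the Calb1-led cluster was -0.77, -0.84 and -1.55 at 1, 4 and 12 h. In the S100g-led cluster it was 1.47, 0.10 (-0.24 to 0.45) and -0.43. One cell held 196 of 634 UMIs at 0 h, 193 of 834 at 1 h, 117 of 808 at 4 h and 67 of 443 at 12 h. The 0 h cell lay in the Calb1-led cluster, where it held 196 of 527 UMIs. Outside its top cell that cluster had 331 Umod UMIs at 0 h and 471 at 4 h, beside 815075 and 1631250 UMIs of all genes. Over all CNT-like cells 438 Umod UMIs at 0 h and 691 at 4 h lay outside the top cell. The UMIs of all genes there were 1497700 and 2938836. Without the 0 h cell the 4 h level was thus less than 1.5-fold lower, so the 4 h call rests on that cell. Slc12a1 in CNT-like cells lay at 43.4, 62.5, 2.04 and 2.34 CPM. It was lower at 4 and 12 h, as Umod was, but by a different course, and its part in the Umod result was not tested. Intercalated cells had 210 to 273 CPM, within the range of the CNT, with a UMI in 21.8% to 25.4% of thinned cells.

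Principal cells gave 11, 16, 75 and 29 Umod UMIs, of which 60 at 4 h and 18 at 12 h lay in 1 cell. They were called higher at both times (log2 ratios 1.65 and 1.27), where 5.29% of all genes were at 4 h and 3.14% at 12 h. Neutrophil, B and T or NK cells, which are not known to make uromodulin, had 19.7 to 314 CPM. The highest values rested on 1 cell each, with 161 of 175 UMIs in B cells at 1 h. In T or NK cells 1 cell held 54 of 78 UMIs at 0 h and 69 of 85 at 4 h. Neutrophils had 29.6 to 68.2 CPM, with at most 10 UMIs in 1 cell. The 11.9 to 37.3 CPM of principal cells is no higher than this neutrophil background and is not read as expression. Endothelial cells gave 59, 24, 298 and 73 Umod UMIs, of which 22 of the 59 at 0 h and 131 of the 298 at 4 h lay in 1 cell. The 1 h level was called lower there (-1.42), the 4 h level higher (1.54, where 3.45% of all genes were) and the 12 h level lower (-0.83), against the shares of lower genes given for Cldn10. Both lower values are set against a 0 h library with 37 UMIs outside that 1 cell, and these 3 values are not read as changes in expression.

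A list of other genes of magnesium handling was read in both classes, beside all genes, which were also called more often in DCT-like cells (7.03%, 18.3% and 13.4%) than in TAL-like cells (2.78%, 5.47% and 4.17%). The list held 23 genes, such as the other CNNM and SLC41 proteins, the basolateral potassium channel subunits and regulators of TRPM6. It was drawn up with earlier results of these data known. In DCT-like cells 1 of 19 tested was called higher and 0 lower at 1 h. At 4 h 3 of 20 were higher and 2 lower, and at 12 h 2 of 19 were higher and 4 lower, with a median log2 ratio of -0.08 beside 0.01 over all genes. In TAL-like cells 1 of 19 was higher at 1 h, 1 lower at 4 h and 0 at 12 h.

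Egf, whose product raises TRPM6 activity, gave 2371, 1831, 1207 and 812 CPM in DCT-like cells. Each library lay below the one before, with a 4 h log2 ratio of -0.97 (-1.02 to -0.92), and the 12 h level was 2.92-fold lower than at 0 h (-1.55, -1.61 to -1.49). In TAL-like cells it lay at 5878, 6019, 4994 and 5549 CPM and was not called, although it served there as a marker of the class. Egfr, its receptor, was called higher at 4 h in DCT-like cells from 18 and 45 UMIs (log2 ratio 0.91, 0.09 to 1.78).

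Ptp4a1 and Ptp4a2, phosphatases that bind CNNM proteins, were higher in DCT-like cells at different times. Ptp4a1 had 39.4, 66.6, 122 and 52.9 CPM, with its peak at 4 h (3.1-fold, log2 ratio 1.63, 1.36 to 1.91). Ptp4a2 had 89.4, 98.4, 156 and 212 CPM, with its highest level at 12 h (2.38-fold, log2 ratio 1.25, 1.06 to 1.44). Slc41a3, a relative of Slc41a1, gave 39, 43, 38 and 15 UMIs and was lower at 12 h (log2 ratio -1.49, -2.45 to -0.59). Cnnm3 (20.4 to 12.6 CPM, log2 ratio -0.69) and Magt1 (99.6 to 63.7 CPM, -0.64) were the other genes lower at 12 h, and are named here after their values were seen. Tusc3, the relative of Magt1 in the oligosaccharyltransferase, was higher (26.4 to 41.3 CPM, log2 ratio 0.65). Kcnj16, a subunit of the basolateral potassium channel, was lower at 4 h (329 to 217 CPM, -0.60) and not called at 12 h. In TAL-like cells Arl15, a partner of CNNM proteins, was higher at 1 h (23.0 to 34.7 CPM, 0.59), and Cnnm4 was lower at 4 h from 29 and 16 UMIs (-1.06).

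Among other claudins 17 of 18 listed symbols were found, and 4 to 7 were tested per time in TAL-like and DCT-like cells. Cldn4, a claudin of the distal nephron and collecting duct, was the clearest. In DCT-like cells it gave 7, 18, 126 and 63 UMIs, with a 4 h log2 ratio of 3.76 (2.67 to 5.10) and a 12 h ratio of 3.06 (1.94 to 4.43). The 4 and 12 h libraries lay above the first. In DCT-like cells 0 of 6 other claudins were called at 1 h, 3 of 7 were higher at 4 h (Cldn4, Cldn6 and Cldn7) and 1 of 7 at 12 h, with 0 lower. Cldn6 rested on 6 and 21 UMIs, and Cldn7, named after its value was seen, went from 88.8 to 168 CPM. In TAL-like cells Cldn3 was higher at 4 h (18.1 to 29.2 CPM, log2 ratio 0.69) and Cldn12 lower at 12 h (17.8 to 10.1 CPM, -0.81).

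Of 14 tight-junction scaffold genes in DCT-like cells at 4 h, 5 were higher and 2 lower, where 8.3% of all genes were higher and 9.98% lower. Marveld3 was among the higher genes, at 25.8 CPM beside 13.6 CPM at 0 h (log2 ratio 0.92). Tjp3 (ZO-3) was lower, from 19.3 to 7.66 CPM (-1.33, -1.96 to -0.73), as was Cgnl1, paracingulin (-0.60). At 1 h Pard6b (log2 ratio 1.06) and Prkci (0.62), both of the polarity complex, were higher and Tjp3 lower (-0.71). At 12 h 0 of 14 were called. In TAL-like cells the tricellular junction gene Marveld2 was lower at 1 h (-0.67), the 1 call of 14, and there were 0 calls at 4 and 12 h.

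Salt transport genes of the TAL were level in TAL-like cells, with 0 of 12 called at each time. In DCT-like cells Bsnd, the barttin subunit of the basolateral chloride channels, was the 1 gene called of 11, lower at 4 h (101 to 38.5 CPM, log2 ratio -1.39) and at 12 h (63.7 CPM, -0.66). Of genes of calcium-sensing receptor signalling, Plcb4, a phospholipase, was higher in TAL-like cells at 1 h (0.68), the 1 call of 10, and none was called at 4 or 12 h. Ptger3 was higher in DCT-like cells at 12 h from 57 and 123 UMIs (1.00).

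Some DCT transport genes were lower beside Trpm6. Of 9 tested in DCT-like cells, 3 were lower and 0 higher at 12 h, with a median log2 ratio of -0.40. Calb1, the calcium buffer calbindin, gave 920, 1076, 623 and 325 CPM (log2 ratio -1.5 at 12 h), and Slc8a1, the sodium-calcium exchanger, gave 56 and 19 UMIs at 0 and 12 h (-1.67). Both also served as CNT markers. Klhl3, an adaptor in the degradation of WNK kinases, was lower at 4 h (545 to 242 CPM, -1.17) and at 12 h (198 CPM, -1.46), and at 4 h alone the ubiquitin ligase Nedd4l was lower (-0.69) and the calcium pump Atp2b1 higher (0.72). In TAL-like cells Calb1 and S100g, calcium-binding proteins of the distal tubule, were called higher at 1 h (log2 ratio 1.85 from 13 and 53 UMIs, and 1.33), and the part of CNT or DCT RNA was not tested.

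Genes of uromodulin folding and anchoring were mostly not called. In TAL-like cells Pdia3, a disulfide isomerase of the endoplasmic reticulum, was higher at 4 h (133 to 221 CPM, log2 ratio 0.73), the 1 call of 10, with 0 at 1 and 12 h. In DCT-like cells at 12 h Piga, needed to make the lipid anchor that uromodulin carries, was lower (54.8 to 28.2 CPM, -0.96), the chaperone Hspa5 was lower (-0.76) and the mucin Muc1 was higher from 25 and 78 UMIs (1.53). Piga was also the 1 gene called at 4 h (-0.85).

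Genes of the dissociation response, which cells switch on while tissue is digested, differed between libraries beside these results. In DCT-like cells 5 of 9 were higher and 0 lower at 1 h, 2 of 9 higher and 3 lower at 4 h, and 0 of 8 higher and 8 of 8 lower at 12 h, with a median log2 ratio of -1.15. Egr1 had 38 CPM at 0 h, 598 at 1 h and 196 at 4 h, and Atf3 rose from 16 to 142 UMIs at 1 h. Fos and Fosb were lower at 12 h (-3.16 and -2.38). In TAL-like cells 6 of 8 were higher at 1 h, among them Fos (1.66) and Fosb (1.66), and 3 of 8 were higher at 4 h. At 12 h 3 of 8 were lower, among them Egr1 (-3.00) and Fos (-1.73), and Hspa1a was higher (0.76). Several of these genes also answer growth factor signals, and the part of dissociation in the members' levels was not tested.

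Across 48 points, each a class in a library with at least 100000 UMIs, the genes whose log2(CPM + 1) followed a member most closely were picked by Pearson correlation. The points of 1 library share its preparation, and those of 1 class share its cell type, so the values are descriptive. For Trpm6 they were Vegfd (0.91) and Gm27239 (0.89), and for Trpm7 Syt9 (0.88) and Lrrc52 (0.85). Cnnm2 was followed by Ccdc141 (0.87). Slc41a1 was followed by Akap17b (0.84) and Klhl21 (0.83). Casr was followed by Nol3 (0.92). For Cldn10 they were Slc5a1 (0.93), a sodium-glucose cotransporter, and Slc9a3 (0.88), the apical sodium-proton exchanger. Cldn16 was followed by Enox1 (0.94) and Sgcz (0.93), Cldn19 by Irx2 (0.91) and Tenm2 (0.91), and Umod by Egf (0.94) and Gpx6 (0.93). Cldn14 stayed under 20 CPM in every class and was not matched.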

How the data were processed

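The authors deposited 1 filtered matrix per library, which holds unnormalised UMI counts by gene and barcode. Per the submitters' processing notes, Cell Ranger 3.1.0, STAR and Seurat were used with the mm10 build, and the annotation is not given in the sources used here. Per the labels' protocols, libraries were made with the 10x Genomics 3′ V3 kit after enzymatic digestion, red cell lysis and annexin V removal of dead cells. The 4 libraries held 12245 to 13813 barcodes and 139675666 to 158838728 UMIs, with a median of 8591 to 10186 UMIs per barcode.

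Barcodes with under 300 genes or over 50% mitochondrial UMIs were left out. Doublets were scored against simulated pairs (30 neighbours, 0.8% expected per 1000 cells), and 6.85% to 7.97% of cells were called and removed. Cells were clustered on 2000 variable genes of each library together (2009 features after members were taken out and markers kept, 30 principal components, 20 neighbours, Leiden resolution 1.5) with scikit-learn 1.9.0, python-igraph 0.11.9 and leidenalg 0.10.2. A cluster was named from at least 3 marker genes, and 19 of 53 clusters stayed unnamed, 7 of them because over 50% of their cells were doublet calls. Unnamed cells made up 5.09% to 7.17% of the cells kept. Names rebuilt in this way may differ from the authors' own.

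CPM is the summed count of a gene over all UMIs of the class. Intervals are exact Poisson, exact conditional binomial (log2 ratios) and Clopper-Pearson (shares), from scipy 1.17.1. They cover counting error only. For shares of cells each cell was thinned to 2000 UMIs and shallower cells were left out. The ratio step was tested on simulated counts.

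The 10 members and the gene lists were chosen with earlier results of these data known. All members are named. From each list, the 2 genes (at most) that rose furthest past the fold and the 2 that fell furthest were named in TAL-like and DCT-like cells at each time, and others are marked where they appear. Patterns most like a member were the 2 genes of highest correlation among those with at least 100 UMIs. Some genes that these rules pick are not reported here. Alternatives were a 25% mitochondrial limit, a minimum of 500 genes, doublet calls kept, each sex alone, CPM over UMIs outside mitochondrial genes, centring on the median gene, equal weight per cell, Leiden resolution 1, no UMI minimum, a minimum of 100 UMIs, and thinning to 1000. After the data were seen, leaving out shared barcodes and pooling DCT-like with CNT-like cells were added. Promoter windows are from RefSeq (GRCm38.p6) and gene positions from GENCODE vM21.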

Additional observations from a re-analysis of the deposited data

Results flagged for a closer look

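Cldn10 was called in opposite directions in different classes, and the difference between classes was not tested. At 4 h its log2 ratio to 0 h was 1.06 in DCT-like and -1.33 in endothelial cells, and at 12 h it was 3.06 in intercalated and -1.60 in endothelial cells. All 3 classes rested on few UMIs. One DCT-like cell held 18 of 39 UMIs at 4 h, 1 intercalated cell held 16 of 29 at 12 h, and 1 endothelial cell held 12 of 29 at 0 h. Immune classes had 4.22 to 28.7 CPM, and the DCT-like and intercalated levels were no higher.

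Umod was called in opposite directions as well, and this difference was not tested either. At 4 h the log2 ratio was -0.62 in CNT-like cells, 1.65 in principal cells and 1.54 in endothelial cells. At 12 h it was -0.64 in DCT-like cells, -1.29 in CNT-like cells, 1.27 in principal cells and -0.83 in endothelial cells. One CNT-like cell held 196 of 634 UMIs at 0 h, and the 4 h call in CNT-like cells rests on it. One principal cell held 60 of 75 UMIs at 4 h and another 18 of 29 at 12 h. One endothelial cell held 22 of 59 UMIs at 0 h and another 131 of 298 at 4 h, while the share of thinned endothelial cells with a UMI stayed between 6.07% and 7.04% over the 4 libraries. The principal cell levels of 11.9 to 37.3 CPM were no higher than the neutrophil level in each library (29.6 to 68.2 CPM).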

How the results depend on the processing

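No paired analysis was possible because each group has 1 library, and for the same reason no replicate could be left out. Of 512 recomputed log2 ratios of single members, 429 stayed within the counting interval of the main value, 82 moved outside it and 1 reversed. A reversal was counted only for values called in the main setting, and some uncalled values changed sign as well. Trpm6 in DCT-like cells at 4 h, for example, went from -0.21 to 0.11 in female-called cells. Of those that moved, 29 did so with a mitochondrial limit of 25%, 19 with male-called cells alone and 16 with female-called cells alone. The reversed value was Cldn10 in DCT-like cells at 4 h, at -0.47 in female-called cells.

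In TAL-like cells the 0 calls became 1 at 12 h with a mitochondrial limit of 25%, 1 at 1 h with cells weighted equally, and 1 at 4 h and 1 at 12 h with no UMI minimum. Over all genes the 25% limit called 148 higher and 120 lower of 5302 there at 12 h. Equal weights called 313 and 235 of 10115 at 1 h. No UMI minimum called 292 and 349 of 13056 at 4 h, and 229 and 256 of 13129 at 12 h. In DCT-like cells a mitochondrial limit of 25%, which left 64 to 159 cells per library, gave 1 call at 1 h, 2 at 4 h and 1 at 12 h. Over all genes that limit called 297 higher and 232 lower of 6318 at 1 h. It called 536 and 708 of 7870 at 4 h, and 377 and 533 of 6868 at 12 h. Male-called cells gave 1 call at 1 h and 2 at 4 h, where over all genes 248 were higher and 215 lower of 7674, and 679 and 649 of 8260. At 4 h the 1 call became 2 with CPM outside mitochondrial genes, and 0 with female-called cells, cells weighted equally, a minimum of 100 UMIs, or DCT-like and CNT-like cells pooled. Over all genes CPM outside mitochondrial genes called 656 higher and 1326 lower of 10068. The other 4 called, in that order, 807 and 581 of 8934, 922 and 1184 of 10060, 623 and 552 of 6777, and 669 and 993 of 10699. For the DCT at 12 h, the remaining alternatives gave 3 or 4 calls. Over all genes these alternatives called 424 to 907 higher and 407 to 841 lower, of 6482 to 12818 tested. Thinning to 1000 UMIs gave a Cldn10 UMI in 25.3% of TAL-like cells with Cldn16 and 59.97% of those without, and keeping doublet calls gave 30.0% and 73.1%.

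The causes of these shifts were not tested. Cldn14 and Cldn16 in the DCT and Trpm6 in the TAL had too few UMIs to be tested, and the Cldn19 call in the DCT at 12 h rested on 9 and 22 UMIs.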
